A study of Homo sapiens with 6 samples.

Results

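The p53 target genes described here are 33 genes that p53 is known to activate or that feed back on p53, out of 58735 genes in the count table. They were listed by name with earlier results of these data known. Each was found through the GENCODE release 29 symbol of its Ensembl gene ID, and all 33 had a row. A total of 32 passed the filter on low counts. SPATA18, which encodes a mitochondrial quality control protein, did not, because it had 0 counts in each of the 6 libraries. A count of 0 allows a level of up to 0.150 to 0.174 CPM (read counts scaled to a common library size), the value of 3 counts, and this limit covers counting error only.

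RNA was sequenced from HCT116 cells, an established line of human colorectal carcinoma, in 2 groups of 3 libraries. One group carried a SETD8 overexpression construct with the genotype label SETD8 overexpression, and the other carried the empty vector with the genotype label WT. The treatment label describes lentiviral delivery and puromycin selection of stable clones for both groups, whereas the design text speaks of transfection. How many clones stand behind a library is not given. The labels do not say whether the 3 libraries of a group came from separate cultures, so each p-value rests on the spread among these libraries alone, which may be technical.

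p53 is a transcription factor that is held low by ubiquitination and rises after DNA damage and other stresses. Its targets arrest the cell cycle, repair DNA, drive apoptosis at the mitochondrion and at death receptors, and restrain p53 itself through a feedback loop. HCT116 cells keep a functional p53. SETD8, whose gene has the symbol KMT5A, adds a single methyl group to a lysine of histone H4, and it is also known to methylate a carboxy-terminal lysine of p53, a mark associated with weaker activation of p53 targets. The title of the series concerns another substrate, the coactivator YAP.

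The libraries held 17056672 to 20471843 counts. KMT5A had 65.4, 66.2 and 75.5 CPM in SETD8 replicates 1, 2 and 3, against 46.0, 47.3 and 53.9 CPM in vector replicates 1, 2 and 3. The measured rise was a modest 1.41-fold (log2 fold change 0.49, edgeR adjusted p = 0.0156). Of 9 markers of colon epithelium, 6 were expressed (EPCAM, CDH1, KRT8, KRT18, KRT19 and CDX2), while VIL1, LGALS4 and CEACAM5 were at or under 0.0935 CPM on average in either group. CDH1, which encodes E-cadherin, averaged 80.7 ± 5.43 CPM in SETD8 and 117 ± 21.5 CPM in vector libraries (SD, n = 3 each) and fell by a log2 fold change of -0.54 (edgeR adjusted p = 0.0218), and the other 5 did not pass. The part of this fall in the results below was not tested. The 9 markers summed, mostly from keratins, to 11263 to 12719 CPM in SETD8 and 10772 to 13286 CPM in vector libraries. Of 7 markers of leukocytes, endothelium and fibroblasts, PTPRC, CD3E and COL1A2 were at 0 and the sum was 3.81 to 5.35 CPM in SETD8 and 4.74 to 7.43 CPM in vector libraries. Mitochondrial transcripts took 4.91% to 5.36% of the counts in SETD8 and 5.95% to 7.77% in vector libraries, and their part in the results was not tested. Libraries of the SETD8 group differed less among themselves (chi-square per degree of freedom 6.15 to 8.73 between pairs) than vector libraries did (14.0 to 33.8). Pairs across the groups stood at 11.5 to 53.6. Vector replicate 1 stood at 11.5 to 13.3 against the SETD8 libraries, and at 14.0 and 33.8 against vector replicates 2 and 3. No pair agreed within sampling noise.

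Stretches of the promoters of 8 p53 target genes are shown because they match all or part of the sequence that p53 is known to bind. Binding was not measured here. The p53 site is a pair of decamers, and a window from 250 bases before to 50 bases after each transcript start was searched for the p53 decamer consensus, which reads the same on both strands. Windows from RefSeq (GRCh38.p14) were at hand for 26 of the 33 genes. A perfect decamer lay in a window of 7 of those 26 genes (26.9%), against 8.06% of all 27305 genes with a window. A pair of decamers without a spacer, with its 4 fixed C and G bases intact and at most 2 mismatches, lay in a window of 4 genes (15.4%), against 0.359% of all genes. A perfect decamer may stand inside such a pair. The genes were picked as p53 targets, so these shares describe the choice. In the sequences below, capitals mark the pair in the first 4 lines and the single decamer in the last 4, and the distance runs from the first capital to the transcript start of that window. A further perfect decamer follows the pair in DDB2 and is left in lower case.
MDM2 (chr12:68808903-68808962, plus strand, 94 bases before the start): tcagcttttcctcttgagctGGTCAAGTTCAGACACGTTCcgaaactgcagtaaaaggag
FAS (chr10:88991289-88991348, plus strand, 122 bases before the start): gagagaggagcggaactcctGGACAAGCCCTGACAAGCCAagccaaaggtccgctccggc
DDB2 (chr11:47214949-47215008, plus strand, 5 bases before the start): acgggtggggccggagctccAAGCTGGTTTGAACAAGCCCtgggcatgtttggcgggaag
AEN (chr15:88621286-88621345, plus strand, 34 bases before the start): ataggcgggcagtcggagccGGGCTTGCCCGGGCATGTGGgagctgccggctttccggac
FDXR (chr17:74872976-74873025, minus strand, 11 bases before the start): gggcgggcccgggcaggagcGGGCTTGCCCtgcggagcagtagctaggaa
PLK2 (chr5:58460189-58460238, minus strand, 132 bases before the start): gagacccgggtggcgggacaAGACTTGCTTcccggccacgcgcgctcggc
SESN1 (chr6:109009008-109009057, minus strand, 49 bases before the start): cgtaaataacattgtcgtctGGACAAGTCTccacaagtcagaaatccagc
RPS27L (chr15:63157507-63157556, minus strand, 59 bases before the start): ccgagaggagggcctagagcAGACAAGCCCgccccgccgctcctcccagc

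With SETD8 overexpression, 4 p53 target genes rose, 3 fell and 25 did not pass the test. The genes that rose were PMAIP1 and BBC3, which encode BH3-only proteins, PHLDA3 and TP53INP1. The genes that fell were FDXR, PLK2 and MDM4. The folds were modest, with a median of 1.38-fold in either direction. The 7 calls are 21.9% of the tested members, against 7.83% of all 14370 genes tested (adjusted p under 0.05 in the quasi-likelihood test of edgeR, Benjamini-Hochberg over all genes). By direction, 12.5% of members rose, against 3.08% of all genes, and 9.38% fell, against 4.75%. Because the members were chosen with earlier results of these data known, these shares describe the list and were not tested. The median log2 fold change was 0.10 over the 32 members and 0.00047 over all genes tested. The member median was 0.029 without vector replicate 3. Relative to the mean of the 6 libraries, the median member stood at 0.020, 0.057 and 0.025 on the log2 scale in SETD8 replicates 1, 2 and 3, against 0.043, -0.031 and -0.146 in vector replicates 1, 2 and 3, so vector replicate 1 lay among the SETD8 libraries. Among all genes, 682 fell and 443 rose, and scaling by library totals alone turned this to 505 lower and 792 higher, while the members stood at 3 lower and 6 higher. In bulk RNA, fewer cells that express a gene and less RNA per cell cannot be told apart.

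**Figure D1:**
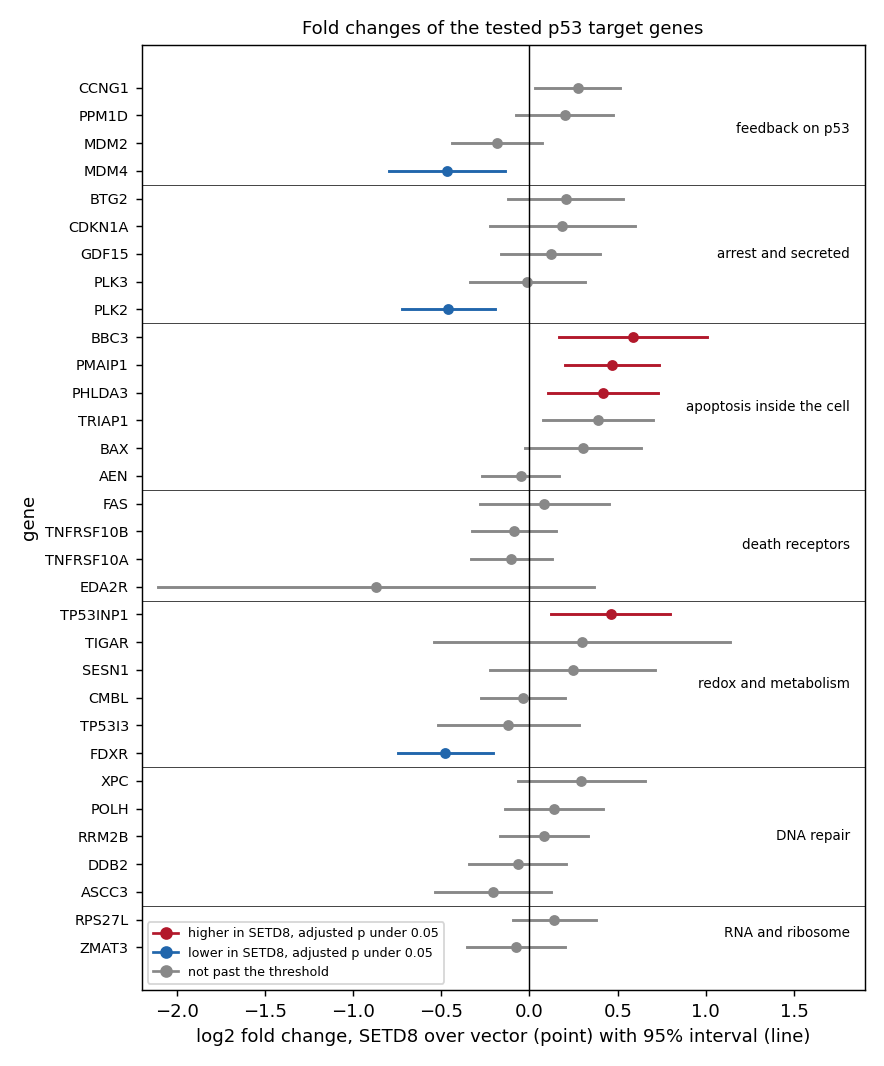
Log2 fold change of SETD8 over vector (x axis) for each of the 32 tested p53 target genes (y axis, grouped by role), with 95% intervals as lines, n = 3 libraries per group. The 4 red genes rose and the 3 blue genes fell at an edgeR adjusted p under 0.05, and grey genes did not pass.

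Every library except vector replicate 1 bore on these calls. All 7 were lost without vector replicate 2, SETD8 replicate 1 or SETD8 replicate 3 (highest edgeR adjusted p = 0.134, 0.134 and 0.132). Without SETD8 replicate 2, 6 were lost, all but PMAIP1 (highest edgeR adjusted p = 0.156), and without vector replicate 3 MDM4 was lost (edgeR adjusted p = 0.0611) and CCNG1 passed as higher. Without vector replicate 1 all 7 were kept, and CDKN1A, BAX, XPC, TRIAP1 and CCNG1 rose as well. Over the whole table, leaving out vector replicates 1, 2 and 3 in turn gave 3509, 72 and 1093 called genes, and leaving out SETD8 replicates 1, 2 and 3 gave 11, 155 and 129. Each of the 7 genes kept its direction in all 6 of these fits.

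**Figure D2:**
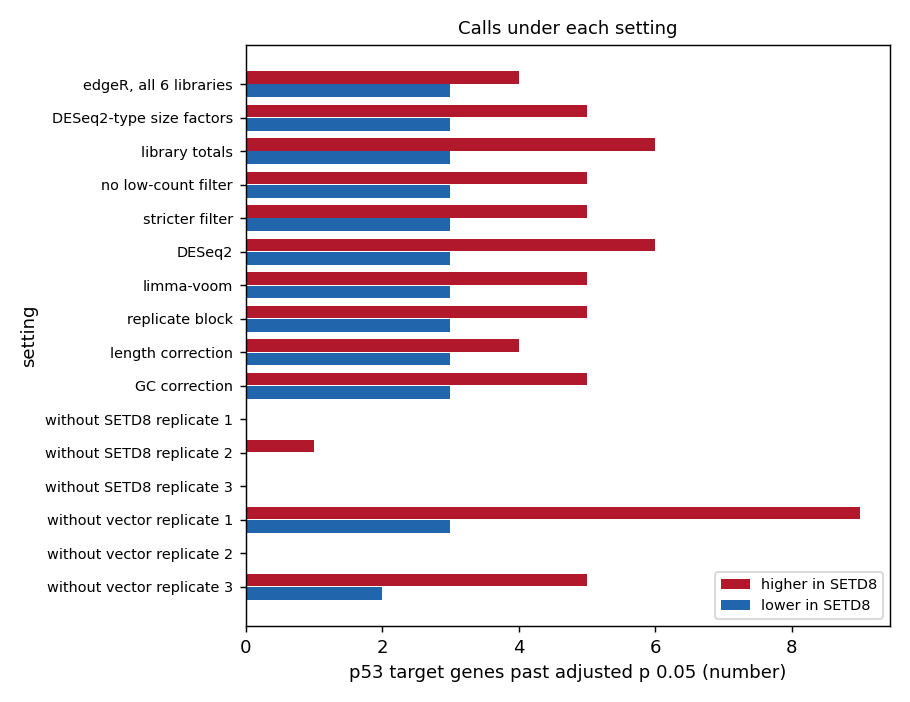
Number of p53 target genes past an edgeR, DESeq2 or limma-voom adjusted p of 0.05 (x axis) under each setting (y axis), higher in SETD8 in red and lower in SETD8 in blue. With all 6 libraries the counts stayed at 4 to 6 higher and 3 lower, and they were 0 to 9 higher and 0 to 3 lower when a library was left out.

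The feedback genes on p53 did not move as a block. MDM4 encodes a p53-binding relative of MDM2 that blocks transactivation, and lies on chromosome 1 from 204516379 to 204558120 of GRCh38 (ENSG00000198625). It had 28.6, 28.5 and 28.4 CPM in SETD8 replicates 1, 2 and 3, against 35.2, 36.8 and 46.3 CPM in vector replicates 1, 2 and 3. All SETD8 libraries were lower than all vector libraries, and vector replicate 3 was the highest. MDM4 averaged 28.5 ± 0.055 CPM in SETD8 and 39.4 ± 6.0 CPM in vector libraries (SD, n = 3 each). This is a log2 fold change of -0.47 (standard error 0.12, edgeR adjusted p = 0.0328). MDM4 had 539, 550 and 489 counts in the SETD8 libraries, so counting error alone exceeds their SD, which is no measure of precision. With each library's trend on transcript length removed, the log2 fold change was -0.32 (edgeR adjusted p = 0.0499).

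MDM2, the ubiquitin ligase that targets p53 for degradation and whose second promoter holds the pair shown above, had 152, 145 and 139 CPM in SETD8 replicates 1, 2 and 3. Vector replicates 1, 2 and 3 had 154, 157 and 185 CPM. The SETD8 libraries were lower without overlap, but SETD8 replicate 1 and vector replicate 1 almost touched. The log2 fold change of MDM2 was -0.19 with a 95% interval of -0.44 to 0.07 (edgeR adjusted p = 0.218). It was -0.02 after the length correction (edgeR adjusted p = 0.910). PPM1D, the phosphatase WIP1 that dampens p53 signalling, had 51.2, 47.0 and 51.5 CPM in SETD8 libraries, against 39.5, 45.8 and 45.0 CPM in vector libraries. CCNG1, which encodes cyclin G1 and is known to recruit a phosphatase to MDM2, had 115, 115 and 103 CPM in SETD8 libraries, against 96.3, 87.1 and 92.0 CPM in vector libraries. Both were higher in SETD8 without overlap and did not pass (log2 fold changes 0.20 and 0.27, edgeR adjusted p = 0.219 and 0.0684). CCNG1 passed with library totals (edgeR adjusted p = 0.0378) and with DESeq2 (adjusted p = 0.0492), and without vector replicate 1 or 3 (edgeR adjusted p = 0.0188 and 0.0460).

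**Figure D3:**
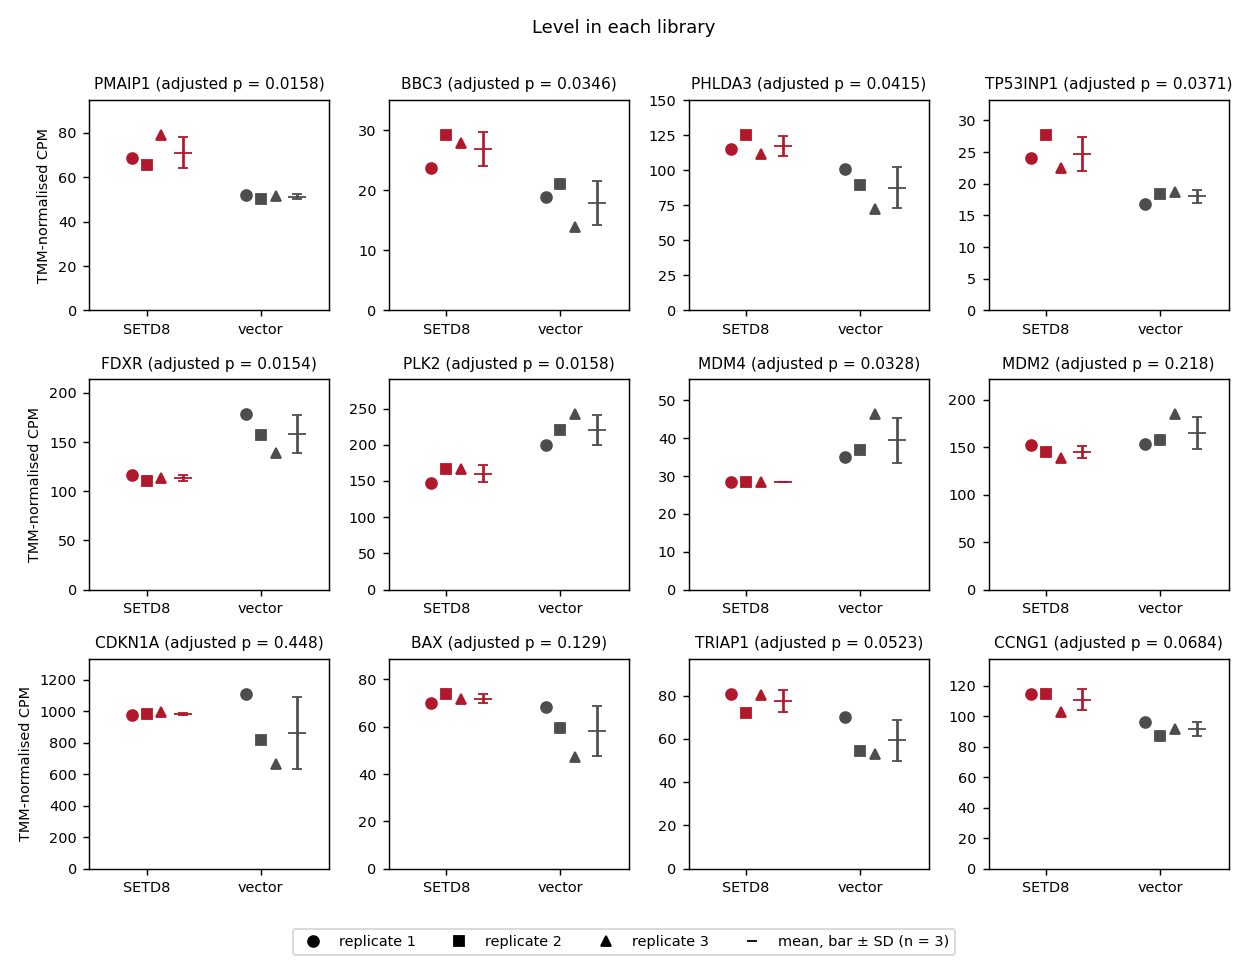
TMM-normalised CPM (y axis, from 0) of 12 p53 target genes in each SETD8 and vector library (x axis), with symbols for replicates and the mean ± SD (n = 3) beside them. SETD8 libraries lie above all vector libraries for PMAIP1, BBC3, PHLDA3, TP53INP1, BAX, TRIAP1 and CCNG1 and below them for FDXR, PLK2, MDM4 and MDM2, and the groups overlap for CDKN1A.

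Among the arrest genes, CDKN1A had the highest level per length of the 33 members, at 303 CPM per kilobase of annotated exon over all libraries. It encodes p21, the cyclin-dependent kinase inhibitor that carries out the p53 arrest. CDKN1A had 979, 981 and 994 CPM in SETD8 replicates 1, 2 and 3, against 1113, 820 and 662 CPM in vector replicates 1, 2 and 3. The SETD8 libraries lay within 1.02-fold of each other and the vector libraries spread over 1.68-fold on both sides of them. Its means were 985 ± 8.04 and 865 ± 229 CPM in SETD8 and vector libraries (SD, n = 3 each), and its log2 fold change was 0.19 with a 95% interval of -0.22 to 0.60 (edgeR adjusted p = 0.448). Without vector replicate 1 the log2 fold change was 0.41 (edgeR adjusted p = 0.00840). PLK2, a polo-like kinase of the stress response on chromosome 5 from 58453982 to 58460260 (ENSG00000145632), had 147, 167 and 167 CPM in SETD8 libraries, against 200, 220 and 242 CPM in vector libraries. The groups did not overlap, and PLK2 fell by a log2 fold change of -0.46 (standard error 0.09, edgeR adjusted p = 0.0158). BTG2, an antiproliferative cofactor of messenger decay, PLK3, a related kinase, and GDF15, a secreted stress hormone, had overlapping groups and log2 fold changes of 0.20, -0.01 and 0.12. None of them passed (edgeR adjusted p = 0.290, 0.961 and 0.478).

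PMAIP1, BBC3, BAX, PHLDA3, TRIAP1 and AEN, placed together by hand, act inside the cell in apoptosis or survival, in different ways. Of these 6, 3 rose (50%, against 3.08% of all genes), 0 fell, and 5 were higher in SETD8 without overlap (83.3%, against 14.4% of all genes). The members were chosen with earlier results of these data known, so these shares describe the hand-made set and were not tested. The median exon length of the 6 genes was 2862.5 bases, against 4745 bases over all genes tested. The 3 rises were kept after the length correction, and the part of length in these shares was not tested. PMAIP1 encodes NOXA, a BH3-only protein that neutralises MCL1, and lies on chromosome 18 from 59899948 to 59904306 (ENSG00000141682). PMAIP1 had 68.8, 65.3 and 78.9 CPM in SETD8 replicates 1, 2 and 3, against 52.2, 50.2 and 51.5 CPM in vector replicates 1, 2 and 3. The vector libraries were close together and all lay below the SETD8 libraries. The means were 71.0 ± 7.04 CPM in SETD8 and 51.3 ± 0.97 CPM in vector libraries (SD, n = 3 each), a 1.38-fold difference (log2 fold change 0.47, standard error 0.10, edgeR adjusted p = 0.0158). Under the 9 other settings with all libraries, its log2 fold change was 0.32 to 0.51 (highest adjusted p over edgeR, DESeq2 and limma-voom = 0.0469).

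BBC3 encodes PUMA, the BH3-only protein most tied to p53-driven death, and lies on chromosome 19 from 47220822 to 47232766 (ENSG00000105327). It had 23.8, 29.2 and 27.9 CPM in SETD8 replicates 1, 2 and 3, against 18.9, 21.01 and 13.8 CPM in vector replicates 1, 2 and 3. The groups were apart, with vector replicate 3 the lowest, and BBC3 rose 1.501-fold (log2 fold change 0.59, standard error 0.15, edgeR adjusted p = 0.0346), the largest fold among the 7 called members. PHLDA3, an inhibitor of AKT at the membrane, lies on chromosome 1 from 201464383 to 201469237 (ENSG00000174307). It had 115, 125 and 111 CPM in SETD8 libraries, against 101, 89.7 and 72.4 CPM in vector libraries, and rose 1.34-fold (log2 fold change 0.42, standard error 0.11, edgeR adjusted p = 0.0415). PHLDA3 shares 598 exonic bases with the noncoding gene AC096677.2 on the same strand, which had 0 counts, so reads there may have been left uncounted.

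BAX, the pore-forming effector of the mitochondrial membrane, had 70.1, 74.0 and 71.7 CPM in SETD8 libraries, against 68.3, 59.4 and 47.2 CPM in vector libraries. The gap to vector replicate 1 was small, and BAX did not pass (log2 fold change 0.30, 95% interval -0.03 to 0.63, edgeR adjusted p = 0.129). TRIAP1, which encodes a small mitochondrial lipid transfer protein that restrains apoptosis, had 80.9, 71.8 and 80.2 CPM in SETD8 libraries, against 70.3, 54.4 and 53.2 CPM in vector libraries. TRIAP1 missed the threshold (log2 fold change 0.39, edgeR adjusted p = 0.0523) and passed under 8 of the 9 other settings with all libraries, the exception being the length correction (log2 fold change 0.20, edgeR adjusted p = 0.157). AEN, an exonuclease of apoptotic DNA breakdown whose promoter holds the pair shown above, had a log2 fold change of -0.05 (95% interval -0.27 to 0.17, edgeR adjusted p = 0.725).

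**Figure D4:**
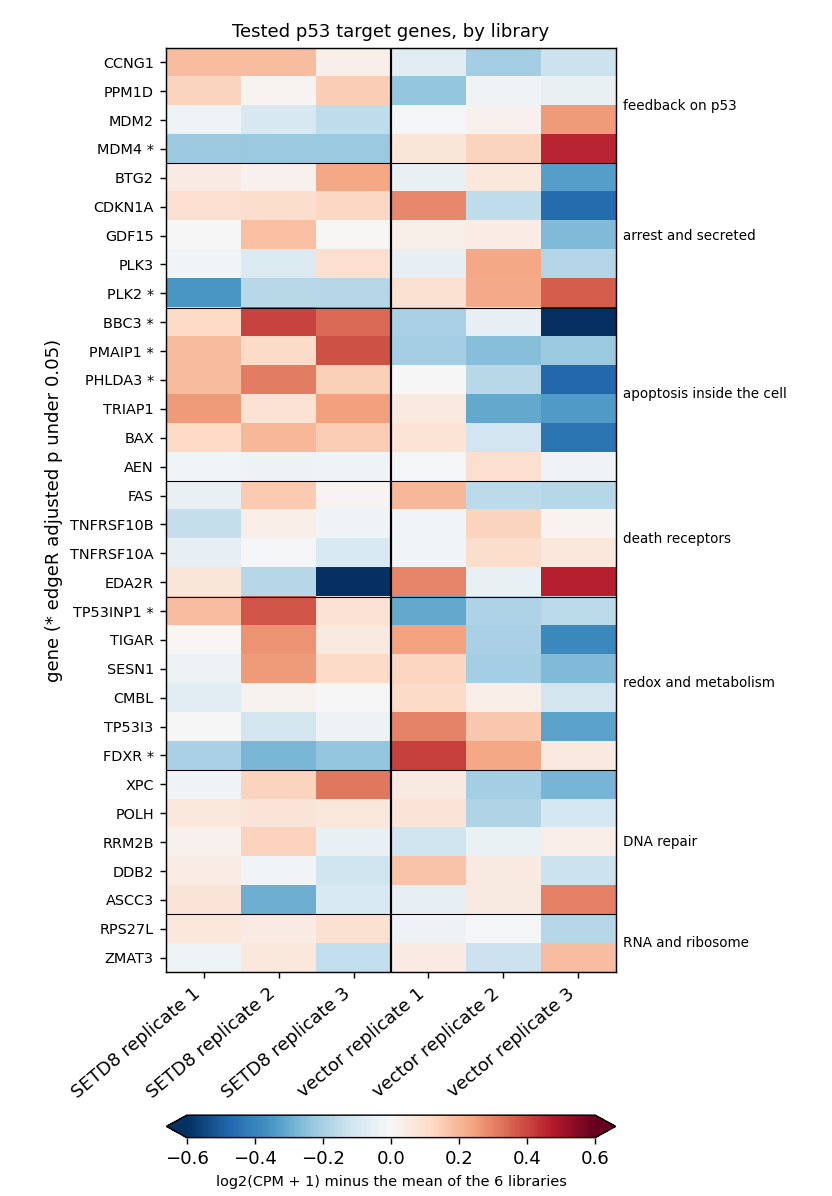
Log2(CPM + 1) of each tested p53 target gene (rows, by role) minus its mean over the 6 libraries, for 3 SETD8 libraries on the left and 3 vector libraries on the right. PMAIP1, BBC3, PHLDA3, TRIAP1 and BAX are red in all 3 SETD8 columns, as are genes of other roles, TP53INP1 and CDKN1A among them. BAX, TRIAP1 and CDKN1A are also red in vector replicate 1. FDXR, PLK2 and MDM4 are blue in the SETD8 columns and red in the vector columns.

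The 4 death receptors did not pass in edgeR, DESeq2 or limma-voom, and 0 had an unadjusted edgeR p under 0.05. TNFRSF10B encodes DR5, a receptor for the ligand TRAIL, and had 168, 191 and 182 CPM in SETD8 libraries, against 184, 204 and 188 CPM in vector libraries. The groups overlapped, and its log2 fold change was -0.09 with a 95% interval of -0.32 to 0.15 (edgeR adjusted p = 0.547). TNFRSF10A, which encodes the sister receptor DR4, had a log2 fold change of -0.10 (95% interval -0.33 to 0.12, edgeR adjusted p = 0.453). FAS, the receptor of FAS ligand, had 0.08 (95% interval -0.28 to 0.45, edgeR adjusted p = 0.726), and a window of its promoter holds the pair shown above. EDA2R, a receptor of the ectodysplasin A2 ligand, was near the detection limit with 0.35 to 1.17 CPM in SETD8 and 1.00 to 1.84 CPM in vector libraries, so its log2 fold change of -0.87 is loosely set (95% interval -2.11 to 0.36, edgeR adjusted p = 0.233).

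Of the 6 tested redox and metabolism genes, 1 rose (16.7%, against 3.08% of all genes) and 1 fell (16.7%, against 4.75%). TP53INP1, a stress protein that takes part in autophagy, lies on chromosome 8 from 94925972 to 94949411 (ENSG00000164938). It had 24.1, 27.6 and 22.5 CPM in SETD8 replicates 1, 2 and 3, against 16.8, 18.4 and 18.7 CPM in vector replicates 1, 2 and 3. The groups did not overlap, and TP53INP1 rose 1.38-fold (log2 fold change 0.46, standard error 0.12, edgeR adjusted p = 0.0371). FDXR, the mitochondrial ferredoxin reductase of steroid and iron-sulfur cluster synthesis, lies on chromosome 17 from 74862497 to 74873031 (ENSG00000161513). It had 117, 110 and 114 CPM in SETD8 replicates 1, 2 and 3, against 178, 157 and 139 CPM in vector replicates 1, 2 and 3. FDXR averaged 114 ± 3.14 CPM in SETD8 and 158 ± 19.5 CPM in vector libraries (SD, n = 3 each) and fell by a log2 fold change of -0.48 (standard error 0.10), with the lowest adjusted p among the members (edgeR adjusted p = 0.0154). TP53I3, a quinone reductase, SESN1, a stress-induced inhibitor of mTORC1, TIGAR, a phosphatase that lowers glycolysis, and CMBL, a hydrolase, had overlapping groups. Their log2 fold changes were -0.12, 0.25, 0.30 and -0.04, and none passed (edgeR adjusted p = 0.634, 0.378, 0.564 and 0.827). TIGAR stood at 1.44 to 2.85 CPM, and it shares 1711 exonic bases with AC008012.1, which had 0 counts, so its level is uncertain.

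None of the 5 DNA repair genes passed in edgeR, DESeq2 or limma-voom with all libraries, and neither did the genes of RNA and the ribosome. Of the DNA repair genes 1, XPC, had an unadjusted edgeR p under 0.05, and it passed without vector replicate 1 (edgeR adjusted p = 0.0274). DDB2 and XPC recognise ultraviolet lesions for nucleotide excision repair. XPC had a log2 fold change of 0.29 (edgeR adjusted p = 0.171) and DDB2 had -0.07 (95% interval -0.34 to 0.21, edgeR adjusted p = 0.704), with the pair shown above at its start. XPC overlaps LSM3 on the opposite strand over 318 exonic bases, and whether strand was used in counting is not known here. RRM2B, a ribonucleotide reductase subunit, POLH, a translesion polymerase, and ASCC3, a helicase of alkylation repair and of ribosome quality control, had log2 fold changes of 0.08, 0.14 and -0.21 (edgeR adjusted p = 0.60, 0.401 and 0.286). RPS27L, a ribosomal protein paralogue, had 85.4, 84.4 and 87.0 CPM in SETD8 libraries, against 79.7, 80.8 and 72.3 CPM in vector libraries. The groups were apart but RPS27L did not pass (log2 fold change 0.14, edgeR adjusted p = 0.309). ZMAT3, an RNA-binding regulator of splicing, had a log2 fold change of -0.08 (edgeR adjusted p = 0.667). Of all 25 genes that did not pass, 14 had a 95% interval inside -0.5 to 0.5 on the log2 scale.

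The groups did not overlap in 13 of the 32 tested members (40.6%), against 30.3% of all genes tested. Of these 13, 9 were higher in SETD8 (28.1% of members, against 14.4% of all genes) and 4 were lower (12.5%, against 15.9%). The spread within the SETD8 group was smaller than within the vector group for 25 of the 32 members (78.1%), against 65.0% of all genes. The median SD of log2(CPM + 1) over members was 0.092 in SETD8 and 0.176 in vector libraries. Vector replicate 1 lay nearer the SETD8 mean than the mean of the other 2 vector libraries for 19 members (59.4%), against 57.2% of all genes. Called members that rose had exon lengths of 2235 to 5676 bases and those that fell 3599 to 11008 bases. Over all genes the median was 3083 bases for those that rose and 6765 bases for those that fell. All 7 calls passed after the length correction, MDM4 narrowly (edgeR adjusted p = 0.0499). Of the 7 called genes, 5 had a promoter window, of which 2 (FDXR and PLK2) held a perfect decamer and 0 held a pair. Of 20 tested genes with a window that were not called, 5 held a decamer and 4 held a pair. Sites outside these windows and pairs with a spacer were not searched for.

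Other p53 targets fell more often than they rose. Of 87 tested members of a list of 90 other p53 targets, 9 fell (10.3%, against 4.75% of all genes) and 1 rose (1.149%, against 3.08%), with a median log2 fold change of -0.08. LIF, a cytokine, averaged 84.6 ± 3.34 CPM in SETD8 and 139 ± 17.2 CPM in vector libraries (SD, n = 3 each; log2 fold change -0.71, edgeR adjusted p = 0.00473). The receptor tyrosine kinase gene EPHA2 (-0.69), the sulfatase gene SULF2 (-0.70) and the plexin gene PLXNB2 (-0.52) fell on the log2 scale too. TNFAIP8, an apoptosis inhibitor chosen for naming once its value was known, rose by 0.66. Without SETD8 replicate 1 the list had 0 lower, and without vector replicate 1 it had 18 lower and 8 higher. The counts lower were 1 and 10 without vector replicates 2 and 3, and 4 each without SETD8 replicates 2 and 3, and 0 were higher in those 4 fits and without SETD8 replicate 1.

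**Figure D5:**
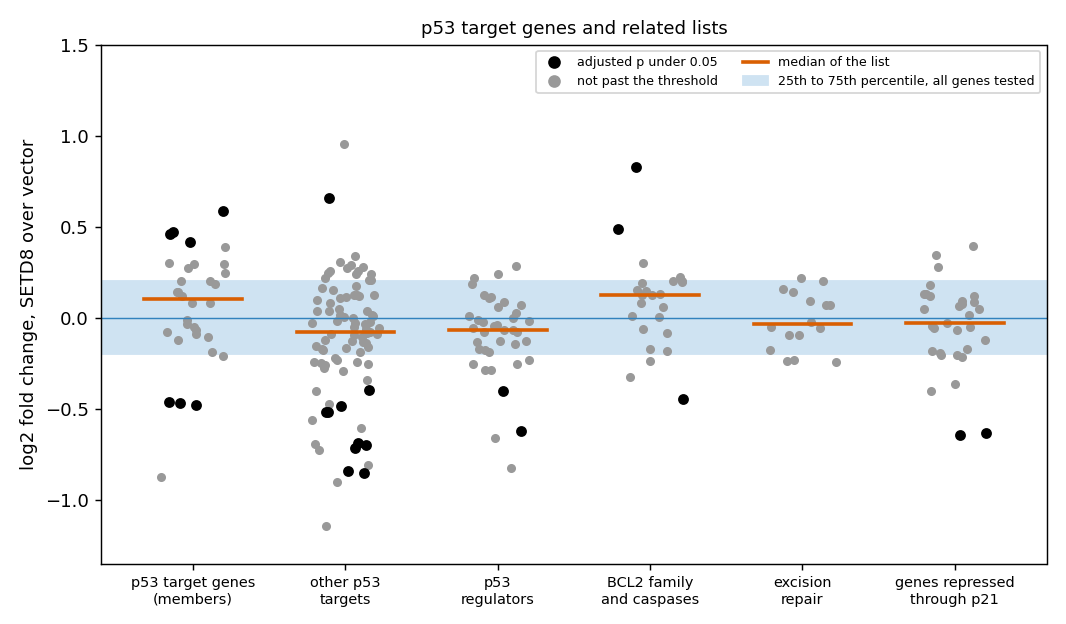
Log2 fold change of SETD8 over vector (y axis) for each tested gene of the 33 p53 target genes and 5 related lists (x axis), with genes past an edgeR adjusted p of 0.05 in black and the list median in orange. The member median was 0.10 and the median of other p53 targets -0.08, and the band runs from -0.20 to 0.20, the 25th to 75th percentile of single genes.

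Of 24 tested BCL2 family members, caspases and their partners, 2 rose (8.33%, against 3.08% of all genes) and 1 fell (4.17%, against 4.75%), with a median log2 fold change of 0.13. CYCS, which encodes cytochrome c, the protein that BAX pores release, had 310 ± 7.52 CPM in SETD8 and 221 ± 26.5 CPM in vector libraries (SD, n = 3 each; log2 fold change 0.49, edgeR adjusted p = 0.0123). HRK, a BH3-only gene at 4.68 CPM in SETD8 and 2.63 CPM in vector libraries, rose by 0.83 (edgeR adjusted p = 0.0437). CASP2, an initiator caspase, fell by a log2 fold change of -0.45 (edgeR adjusted p = 0.0206), and PIDD1, the scaffold known to activate it, fell by -0.51 (edgeR adjusted p = 0.0181, chosen once its value was known). MCL1, the survival protein bound by NOXA, had -0.18 and did not pass (edgeR adjusted p = 0.180). The rises were 5 without vector replicate 1, 1 without vector replicate 3 and 0 without any other library, and the fall was lost without vector replicate 2 or any SETD8 library.

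Of 39 regulators of p53, 2 fell and 0 rose in the main edgeR fit, DESeq2 and limma-voom with all libraries. At an unadjusted edgeR p under 0.05, 8 were lower (20.5%, against 13.8% of all genes) and 2 were higher (5.13%, against 12.3%), and 1 was called higher without vector replicate 1. The 2 falls are 5.13%, against 4.75% of all genes. The genes that fell were TRIM24, a ubiquitin ligase for p53 (log2 fold change -0.62, edgeR adjusted p = 0.0242), and HIPK2, a kinase that phosphorylates p53 (-0.40, edgeR adjusted p = 0.0332). The kinase genes ATM (-0.66, edgeR adjusted p = 0.0832) and PRKDC (-0.25, edgeR adjusted p = 0.0940) did not pass. The count lower was 8 without vector replicate 1, 3 without vector replicate 3 and 0 without any other library. With all libraries it was 3 with no low-count filter, 3 after the GC correction and 1 after the length correction. Of 31 tested cell cycle genes that p53 represses through p21, MKI67 (log2 fold change -0.64) and CENPF (-0.63) fell, 6.45% against 4.75% of all genes. In the main edgeR fit, DESeq2 and limma-voom with all libraries 0 rose. At an unadjusted edgeR p under 0.05, 4 were lower (12.9%, against 13.8% of all genes) and 3 were higher (9.68%, against 12.3%). The count higher was 3 without vector replicate 1, 2 with no low-count filter and 1 with library totals. CDK1 (0.28) and PLK4 (-0.37) did not pass (edgeR adjusted p = 0.0911 and 0.112). The median of the cell cycle list was -0.03, and MKI67 and CENPF are also genes of mitosis. Of those 31 genes, 0 were lower without SETD8 replicate 1 or 2, 1 without SETD8 replicate 3 or vector replicate 2, and 3 without vector replicate 1 or 3. Of 16 excision repair partners of XPC and DDB2, 0 passed in edgeR, DESeq2 or limma-voom with all libraries. At an unadjusted edgeR p under 0.05, 2 were lower (12.5%, against 13.8% of all genes) and 0 higher, and without vector replicate 3, 2 were called lower. The lowest adjusted p was that of ERCC1 (log2 fold change -0.25, edgeR adjusted p = 0.0907).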

How the data were processed

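Poly(A)-selected TruSeq Stranded mRNA libraries were made from TRIzol RNA, per the labels' protocols. The authors deposited whole-number read counts for each Ensembl gene, without normalization. Per the submitters' processing notes, HISAT2, STAR, featureCounts, HTSeq and the build GRCh38 (hg38) were used, in roles not stated. The sources used here give neither a strand setting nor an annotation. All 58735 IDs matched GENCODE release 29, the source of symbols, positions and exon lengths. Columns named NC were taken as the vector group, the only one besides SETD8, and 0 columns belonged to other samples.

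The filter filterByExpr kept 14370 genes and dropped 44365. After TMM scaling, SETD8 was compared with vector, with no covariate, in the robust quasi-likelihood test of edgeR 4.0.16 (with limma 3.58.1 under R 4.3.3). Tests were two-sided, p-values were adjusted by Benjamini-Hochberg across the genes tested, and 0.05 was the threshold. The common biological coefficient of variation came to 0.116. A standard error is the log2 fold change over the root of the F statistic, and 95% intervals use the 4 degrees of freedom of the libraries. The script was tested on simulated data. Alternatives changed the scaling (size factors as in DESeq2, or library totals), the filter (none, or at least 1 CPM in the 3 libraries of either group) and the tool (DESeq2 1.42.0, limma-voom). Others added a replicate block, removed length or GC trends with lowess offsets (span 0.3), or left out each library.

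Members and lists were chosen with earlier results of these data known, so lists are described and not tested. All members are accounted for, with values per library for those called or without overlap and for MDM2, CDKN1A, BBC3, BAX and TNFRSF10B. Up to 4 genes of each other list are named by adjusted p, and TNFAIP8 and PIDD1 were added once their values were known. Roles were assigned by hand. Exon length is the union of annotated exons, so rare long isoforms lower a level per kilobase. Promoters and their coordinates come from RefSeq.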

Additional observations from a re-analysis of the deposited data

How the results depend on the processing

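With all 6 libraries, the 7 called members kept their call and direction under all 9 alternatives. The count of members higher was 4 to 6 and of members lower 3 throughout, and the member median stayed at 0.070 to 0.15. The count of all called genes was 2000 with no low-count filter, against 1125, and 1105 to 1646 under the other 8. Leaving out single libraries gave 11 to 3509 called genes, 0 to 3 members lower, 0 to 9 members higher and member medians of 0.029 to 0.14. The cause was not tested. The labels do not say whether replicate numbers pair the libraries. Deviations from the group means correlated at 0.025, 0.0078 and -0.064 between same-numbered libraries. SETD8 replicate 1 correlated best with vector replicate 1, and SETD8 replicates 2 and 3 with vector replicates 3 and 1. With 3 libraries per group these values cannot decide whether the libraries were paired. The replicate block gave 1177 called genes, with 5 members higher and 3 lower. Depth limits EDA2R, TIGAR and SPATA18 most.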
